A study of Homo sapiens with 6 samples.

Results

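The 10 genes described are regulators or substrates of the anaphase-promoting complex (APC/C), or act in the switch turning on cyclin-dependent kinase 1. These are CDC20, FZR1, UBE2C, UBE2S, FBXO5, PTTG1, the CDC25 phosphatases CDC25A, CDC25B and CDC25C, and WEE1. They were taken from the deposited RNA-seq table by exact gene symbol. All 10 were found, among 26822 symbols in the table, and each had a row that held no other symbol. The RNA came from MCF10A, an immortalised human cell line of breast epithelium. Cells received siRNA at 30 nM for 72 hours, either non-targeting (siNT, 3 samples) or against PAX9 (siPAX9, 3 samples). PAX9 is a transcription factor of the paired box family. The table gives 1 FPKM per gene and group, the authors' combined value of the 3 samples, so no spread between samples could be computed and no difference was tested. FPKM is scaled to transcript length. Levels of different genes are set side by side here, but reads shared between similar or overlapping loci can shift them. The table gives no number of reads behind a value.

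The APC/C is a ubiquitin ligase that marks cell cycle proteins for destruction by the proteasome. CDC20 activates it at the start of anaphase and FZR1 (CDH1) from late mitosis through G1, and its substrates include securin, the mitotic cyclins and several of its own regulators. Entry into mitosis depends on the removal by CDC25 phosphatases of inhibitory phosphates that WEE1 and PKMYT1 place on cyclin-dependent kinases. Many genes of these pathways are transcribed mainly in G2 and M.

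As a check of the knockdown, PAX9 stood at an FPKM of 2.80 (siNT) and 0.325 (siPAX9). These are low values. With 1 added to each FPKM, the log2 ratio of siPAX9 over siNT was -1.52 in place of -3.10, and PAX9 does not pass a mean FPKM of at least 5. Its row spans chr14:37126772-37642998 (hg19), and what else lies in that span was not examined. The cell type in the labels was checked against markers. Of 7 basal epithelial markers, all had a mean FPKM of at least 1, and their summed FPKM was 3660 in siNT and 4328 in siPAX9. KRT17 was the most abundant, at 1718 in siNT and 2088 in siPAX9, followed by KRT5 at 1558 and 1807. KRT14 stood at 31.4 and 40.9, TP63 at 35.4 and 25.3, ITGA6 at 85.8 and 96.9, ITGB4 at 147 and 128, and CDH3 at 84.1 and 142. The luminal markers were mixed. Among these, KRT18 had 212 in siNT and 119 in siPAX9, KRT8 had 51.7 and 58.7, EPCAM had 34.3 and 16.7, and GATA3 had 6.19 and 7.56, while KRT19 and ESR1 stayed below 0.4 in both groups. KRT8 and KRT18 are listed at the same locus, so their values may not have been told apart. Markers of blood, endothelial, liver and glial cells were near 0, with CD3E listed at 0 in both groups and PTPRC, CDH5, ALB and GFAP below 0.1, but PECAM1 had 2.58 in siNT and 0.495 in siPAX9. The stromal genes DCN, at 5.85 and 37.9, and COL1A1, at 0.454 and 4.13, were higher in siPAX9. The 8 markers of other cell types summed to 8.94 in siNT and 42.7 in siPAX9, DCN being the most abundant in both, and their part in the values of the 10 genes was not tested.

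A gene was called lower when its FPKM in siPAX9 was at most the siNT value divided by 2, and higher when it was at least 2 times the siNT value. Of the 10 genes, 6 were lower and 0 were higher. Among all 13264 genes with a mean FPKM of at least 1, 915 (6.9%) were lower and 904 (6.82%) were higher. The 6 were CDC25C, UBE2C, PTTG1, CDC20, UBE2S and FBXO5, with log2 ratios of siPAX9 over siNT from -2.43 to -1.09. The other 4, FZR1, CDC25A, WEE1 and CDC25B, lay between -0.36 and -0.01, and no member lay in the gap of 0.73 between these ranges. The median log2 ratio was -1.23 for the 10 genes and -0.07 for all 13264. In RNA from a whole culture, fewer cells that carry a transcript and less of that transcript per cell cannot be told apart.

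**Figure D1:**
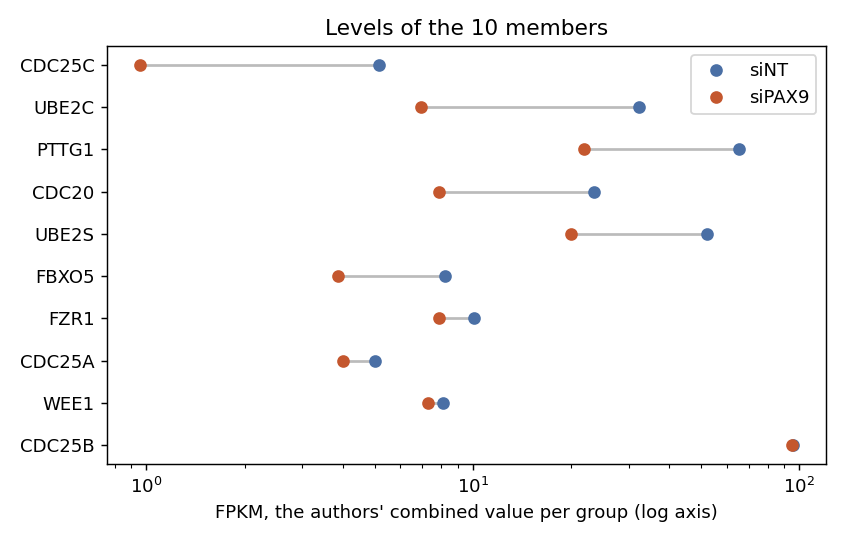
FPKM of each of the 10 genes in siNT (blue) and siPAX9 (orange) on a log axis, each point being the authors' combined value for the group, with genes ordered by log2 ratio. CDC25C moves from 5.14 to 0.955 at the top, while the points for CDC25B, at 95.5 and 94.7, lie on each other.

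The order of the levels was similar in both groups at the top. CDC25B had the highest FPKM of the 10 in siNT and in siPAX9, followed by PTTG1 and then UBE2S. UBE2C moved from place 4 in siNT to place 7 in siPAX9. CDC25A, the lowest in siNT, was at place 8 in siPAX9, where CDC25C was lowest. Without replicate values it is not known which neighbours in this order differ beyond their spread.

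Stretches upstream of the starts are shown for every member with a promoter sequence, lower or not. Promoter sequences came from RefSeq (GRCh38.p14), where 8 of the 10 genes matched, with 17 start sites in all; UBE2C and WEE1 have no entry. The 250 bases before each start were searched on both strands for TTTGAA, the core of the cell cycle genes homology region (CHR), for its variants TTCGAA and TTTAAA, and for CCAAT, the box bound by NF-Y. TTTAAA and TTCGAA read the same on both strands. Matches are in capitals, and ATTGG and TTCAAA are CCAAT and TTTGAA on the other strand. For genes with several starts, the start with the most matches in the printed stretch is given. FZR1 had no match in that stretch, and its start with TTTGAA at 226 is given. These choices were made after the matches were seen. Each stretch covers 100 bases, from 120 to 21 before the start, except for CDC25C, where only 30 bases around TTTGAA are given:
CDC20, chr1:43358861-43358960, plus strand: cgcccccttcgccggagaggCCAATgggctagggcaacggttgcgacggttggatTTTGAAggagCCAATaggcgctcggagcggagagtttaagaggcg
PTTG1, chr5:160421735-160421834, plus strand: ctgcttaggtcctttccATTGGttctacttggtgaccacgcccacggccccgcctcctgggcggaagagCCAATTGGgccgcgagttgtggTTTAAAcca
FBXO5, chr6:152983062-152983161, minus strand: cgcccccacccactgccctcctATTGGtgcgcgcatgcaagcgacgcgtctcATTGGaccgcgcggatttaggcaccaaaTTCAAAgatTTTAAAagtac
CDC25C, chr5:138331817-138331846, minus strand: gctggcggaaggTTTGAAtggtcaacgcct
CDC25B, chr20:3796190-3796289, plus strand: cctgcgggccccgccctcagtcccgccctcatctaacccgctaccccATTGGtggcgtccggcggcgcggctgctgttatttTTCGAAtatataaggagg
CDC25A, chr3:48188438-48188537, minus strand: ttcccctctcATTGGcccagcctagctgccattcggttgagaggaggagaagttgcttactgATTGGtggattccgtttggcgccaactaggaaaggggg
UBE2S, chr19:55407809-55407908, minus strand: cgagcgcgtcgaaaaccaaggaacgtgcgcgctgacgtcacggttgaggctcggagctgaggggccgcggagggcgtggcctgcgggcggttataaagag
FZR1, chr19:3506191-3506290, plus strand: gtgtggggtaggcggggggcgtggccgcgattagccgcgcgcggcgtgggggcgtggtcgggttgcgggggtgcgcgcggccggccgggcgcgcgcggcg

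CDC20 had TTTGAA 65 bases before its start, between CCAAT at 100 and CCAAT at 55, and again on the other strand at 178. PTTG1 had TTTAAA at 29, CCAAT on the other strand at 103, and CCAAT at 51 overlapping a match on the other strand at 48. In FBXO5, TTTGAA on the other strand began at 40 and TTTAAA at 31. Before the same start, CCAAT lay on the other strand at 98 and 68. Outside the printed stretch, CCAAT lay at 141 and on the other strand at 138. CDC25C had TTTGAA 30 bases before the start at 138331804, a start that lies downstream of another one of the same gene, and CCAAT on the other strand at 85, outside the printed stretch. The start at 138331877 had 3 matches to CCAAT, at 217, 200 and 12, and no TTTGAA. Of the genes that were not lower, CDC25B had TTCGAA at 38 and, before the same start, CCAAT on the other strand at 73. CDC25A had CCAAT on the other strand at 110 and 58, and no match to the other letters. FZR1 had TTTGAA only at 226, and UBE2S, which was lower, had only CCAAT, on the other strand at 191. In all, TTTGAA lay before 4 of the 17 starts and 13.3% of 35116 promoters, TTCGAA before 1 and 1.19%, TTTAAA before 3 and 11.3%, and CCAAT before 10 and 32.0%. Starts of the same gene can share bases, and a match is a run of letters, not a measured binding site.

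Of the co-activators, CDC20 stood at 23.5 FPKM in siNT and 7.88 in siPAX9, 2.98-fold lower. Its row spans chr1:43824625-43828873 (hg19), where the annotation holds no other gene, and 350 of the 13264 genes had a lower log2 ratio. FZR1, the other co-activator, had 10.0 in siNT and 7.85 in siPAX9, a log2 ratio of -0.36. CDC20 was thus at 2.34 times the FPKM of FZR1 in siNT and at 1.00 times in siPAX9.

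The ubiquitin-conjugating enzymes of the APC/C were both lower. UBE2C, which places the first ubiquitins on substrates, had 32.3 in siNT and 6.95 in siPAX9, 4.65-fold lower, and 162 genes had a lower log2 ratio. UBE2S, which lengthens the chains, had 52.1 and 20.0, 2.60-fold lower. UBE2C relative to UBE2S was 0.620 in siNT and 0.347 in siPAX9. Together the pair summed to 84.4 in siNT and 27.0 in siPAX9. The annotated gene RPL28 on the opposite strand reaches into the UBE2S locus, and the table does not say whether reads were counted by strand. RPL28 had 413 in siNT and 294 in siPAX9, and its row in the table, chr19:55897299-55903451 (hg19), does not overlap that of UBE2S, which starts at 55912649. Of 29 other UBE2 genes, 0 were lower and 0 were higher, against 6.9% and 6.82% of all 13264 genes. The list is too short to tell these counts from those shares. Log2 ratios ran from -0.96 to 0.68. The median of -0.036 became 0.035 when ratios were centred on the median of all genes. UBE2T had the lowest log2 ratio of the 29, with 25.0 in siNT and 12.8 in siPAX9, 1.95-fold lower and just short of the fold. At a fold of 1.5, 4 of the 29 were lower and 1 was higher, against 16.7% and 13.7% of all 13264 genes. UBE2M, which conjugates NEDD8, stood at 45.4 in siNT and 45.5 in siPAX9.

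FBXO5 (EMI1), an inhibitor of the APC/C, had 8.21 in siNT and 3.87 in siPAX9, 2.12-fold lower, the smallest fold among the 6. With 1 added to each FPKM its log2 ratio was -0.92, short of the threshold. FBXO5 relative to FZR1 was 0.818 in siNT and 0.493 in siPAX9.

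PTTG1 (securin), which holds separase inactive until anaphase, had 65.2 in siNT and 21.8 in siPAX9, 2.99-fold lower. Its value is uncertain, because the table lists near-copies whose reads can be shared. PTTG2 had 36.3 and 12.1, and PTTG3P had 43.6 and 14.4; both were named with their values already known. Their annotated transcripts matched PTTG1 at 93.7% identity over 699 bases and 94.7% over 607 bases. The 3 loci summed to 145 in siNT and 48.3 in siPAX9, a log2 ratio of -1.59 against -1.58 for PTTG1 alone, and PTTG1 held 44.9% of the sum in siNT and 45.2% in siPAX9. The loci without a symbol of up to 5000 bases, 13747 in all, were also searched with the transcripts of the 10 genes, and the longest alignment at 90% identity or more had 56 bases.

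The CDC25 phosphatases differed among themselves. CDC25C, which acts on cyclin-dependent kinase 1 at the entry into mitosis, had 5.14 in siNT and 0.955 in siPAX9, 5.39-fold lower, and 142 genes had a lower log2 ratio. With 1 added to each FPKM its log2 ratio was -1.65 in place of -2.43. With a mean FPKM of at least 5, CDC25C drops out of the count. Its locus, chr5:137620953-137685482 (hg19), is the same as that listed for FAM53C, a gene on the opposite strand with 22.8 in siNT and 18.9 in siPAX9, and reads of the pair may not have been told apart. CDC25A, which also acts at the start of S phase, had 5.00 and 4.01, a log2 ratio of -0.32. CDC25B, thought to start the activation of cyclin-dependent kinase 1 at the centrosome, had 95.5 and 94.7, a log2 ratio of -0.01 before and 0.06 after centring. In siNT, CDC25C and CDC25A had nearly the same level, a ratio of 1.03, and in siPAX9 the ratio was 0.238. CDC25B made up 90.4% of the summed FPKM of the family in siNT and 95.0% in siPAX9, and CDC25C 4.87% and 0.958%.

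WEE1, the nuclear kinase that opposes the CDC25 phosphatases, had 8.11 in siNT and 7.30 in siPAX9, a log2 ratio of -0.15. PKMYT1, the related kinase bound to membranes, had 5.57 and 2.57, and the level of WEE1 relative to it was 1.46 in siNT and 2.84 in siPAX9. Relative to CDC25C, WEE1 was 1.58 in siNT and 7.64 in siPAX9. The latter ratio rests on the low CDC25C value of 0.955 in siPAX9. Ratios of levels within a group were not recomputed with a pseudocount or under other settings.

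**Figure D2:**
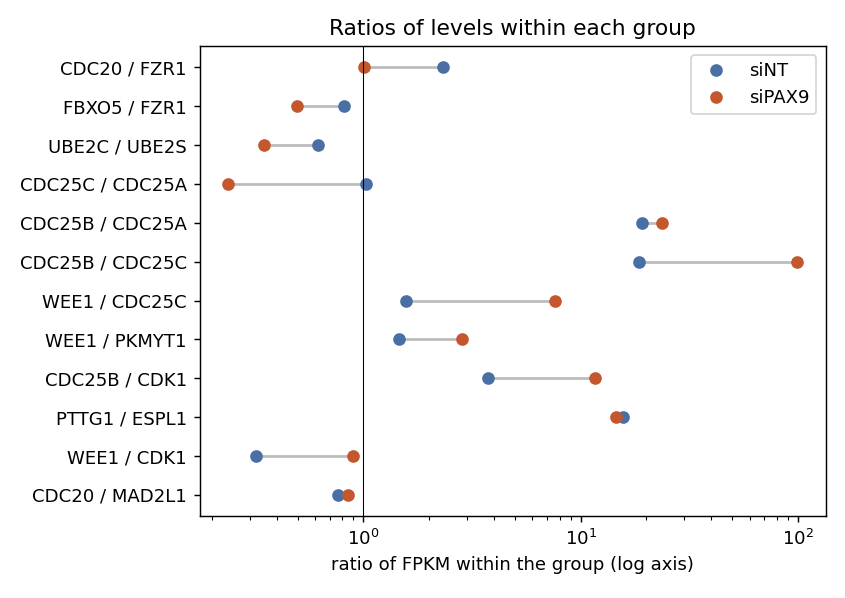
Ratio of the FPKM of a gene to that of another within siNT (blue) and within siPAX9 (orange), on a log axis with a line at 1. WEE1 over CDC25C goes from 1.58 to 7.64 and CDC25C over CDC25A from 1.03 to 0.238, while PTTG1 over ESPL1 is 15.7 and 14.5. In siPAX9, ratios with CDC25C rest on its low value of 0.955.

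The members were also placed among all genes by level. Of genes with a mean FPKM from 1 up to 5, 10.2% were lower in siPAX9, of those from 5 up to 20, 5.24%, of those from 20 up to 100, 5.48%, and of those above, 11.1%. CDC25C and CDC25A lie in the lowest of these bands, and UBE2S, PTTG1 and CDC25B in the band from 20 up to 100.

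**Figure D3:**
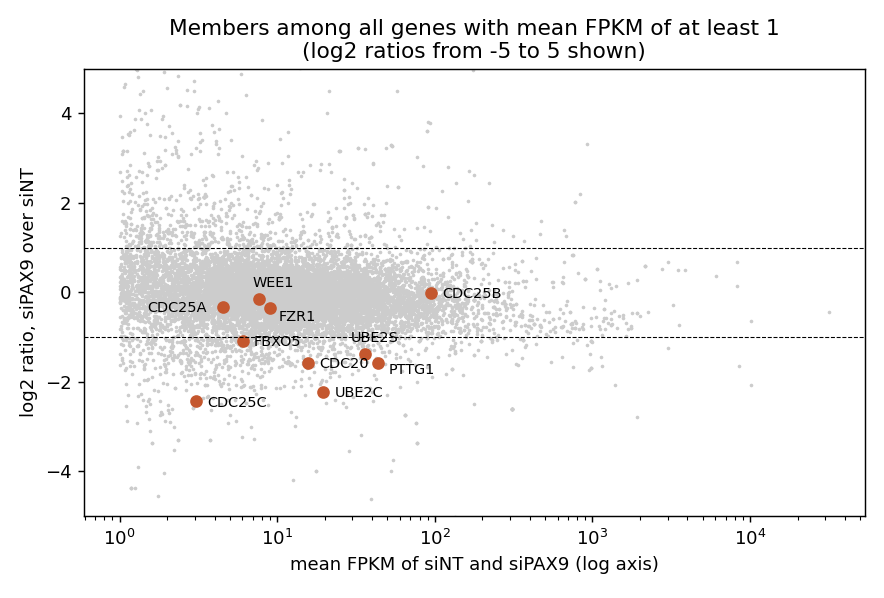
Log2 ratio of siPAX9 over siNT against the mean FPKM of both groups (log axis) for genes with a mean FPKM of at least 1 (grey) and the 10 members (orange), with dashed lines at -1 and 1. CDC25C at -2.43 and UBE2C at -2.22 lie lowest of the members, and CDC25B at -0.01 lies between the dashed lines.

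Genes that act with the 10 were compared by list. Of the 14 core subunits of the APC/C, 0 were lower and 0 were higher, against 6.9% and 6.82% of all 13264 genes. The list is too short to tell these counts from those shares. Its median log2 ratio was -0.28, with a range from -0.60 to 0.04. At a fold of 1.5, 1 subunit was lower and 0 were higher, against 16.7% and 13.7% of all genes. ANAPC4 stood at 5.17 in siNT and 5.31 in siPAX9.

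Of 25 APC/C substrates, 21 were lower and 0 were higher, against 6.9% and 6.82% of all 13264 genes. The median log2 ratio of the 25 was -1.56. The lowest log2 ratios were those of the mitotic kinase NEK2, with 16.0 in siNT and 3.62 in siPAX9, the spindle protein HMMR with 13.6 and 3.11, cyclin B2 (CCNB2) with 20.4 and 4.71, BIRC5 (survivin) with 18.0 and 4.22, AURKB with 12.7 and 3.05, and DLGAP5 with 9.58 and 2.43. RRM2, a subunit of ribonucleotide reductase, had the log2 ratio nearest to 0, with 10.4 and 8.55. These are RNA levels, and protein stability, which the APC/C acts on, was not measured here.

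The spindle checkpoint holds CDC20 back until chromosomes are attached. Of 10 genes listed for it, 5 were lower and 0 were higher, against 6.9% and 6.82% of all 13264 genes. Among the 10 are TRIP13 and MAD2L1BP, which help to switch the checkpoint off, and MAD2L2, a relative of MAD2L1 with other roles. The kinases TTK, at 8.11 in siNT and 1.82 in siPAX9, and BUB1, at 7.81 and 1.89, had the lowest log2 ratios; with a mean FPKM of at least 5 both drop out and the count is 3. MAD2L1, which binds CDC20, had 30.7 and 9.31, so that CDC20 over MAD2L1 was 0.764 in siNT and 0.846 in siPAX9. ZWINT and MAD2L2 were also lower, with log2 ratios of -1.30 and -1.03, but MAD2L2 was short of the threshold after centring (-0.96) and with 1 added to each FPKM (-0.93). Of the others, TRIP13 was at -0.80 and BUB3 at -0.47. BUB1B, at -0.01, shares its row with other symbols, and MAD2L1BP and MAD1L1 were at 0.06 and 0.42. Of 12 genes of separase and cohesin, 2 were lower and 0 were higher, against 6.9% and 6.82% of all 13264 genes. The 2 were ESPL1, the separase held by PTTG1, with 4.15 and 1.51, and ESCO2, which acetylates cohesin, with 2.64 and 1.10. With 1 added to each FPKM, ESCO2 was at a log2 ratio of -0.79 and the count was 1, and with a mean FPKM of at least 5 it was 0. PTTG1 over ESPL1 was 15.7 in siNT and 14.5 in siPAX9. NIPBL, the cohesin loader, had 10.1 and 10.4, a log2 ratio of 0.04 that became 0.52 when all rows with its symbol were summed.

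Upstream and downstream of CDC25 and WEE1, 3 of 16 genes were lower and 0 were higher, against 6.9% and 6.82% of all 13264 genes. The median log2 ratio of the 16 was -0.20. CDK1, the shared target, had 25.4 in siNT and 8.17 in siPAX9, and CHEK1, a kinase that restrains CDC25 proteins, had 12.3 and 4.73; PKMYT1 was the other, with a log2 ratio of -1.12 that was -0.88 with 1 added to each FPKM. ENSA had 113.6 and 114.5. WEE1 over CDK1 was 0.319 in siNT and 0.893 in siPAX9, and CDC25B over CDK1 was 3.75 and 11.6. The 7 14-3-3 genes encode proteins that bind phosphorylated CDC25. Of these 7 genes, 0 passed the fold in either direction, against 6.9% lower and 6.82% higher among all 13264 genes. The list is too short to tell these counts from those shares. SFN, the epithelial form, had 341 and 472 and YWHAZ 283 and 389, with log2 ratios of 0.47 and 0.46, followed by YWHAG at 0.43, YWHAQ at 0.34, YWHAB at 0.05, YWHAE at -0.36 and YWHAH at -0.70.

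SCF is the ubiquitin ligase that shares the work of cell cycle control with the APC/C. Of 10 genes listed as its subunits or partners, 2 were lower and 0 were higher, against 6.9% and 6.82% of all 13264 genes. The 2 were CKS1B, with 41.7 in siNT and 16.1 in siPAX9, and CKS2, with 64.5 and 27.1, neither of which is a subunit of SCF. CCNF was at a log2 ratio of -0.90, RBX1 at -0.78, CDC34 at -0.26, CUL1 at -0.24, SKP1 at -0.19, BTRC at 0.11 and FBXW11 at 0.19. FBXW7, which recognises cyclin E, had 13.3 in siNT and 25.2 in siPAX9, a log2 ratio of 0.92. Of 4 proliferation markers, TOP2A had 39.3 and 7.37, MKI67 18.4 and 6.21, and MCM2 16.7 and 5.67, and PCNA, at a log2 ratio of -0.92, did not reach the fold. The lower members moved with these markers, and the part of proliferation in their values was not tested.

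**Figure D4:**
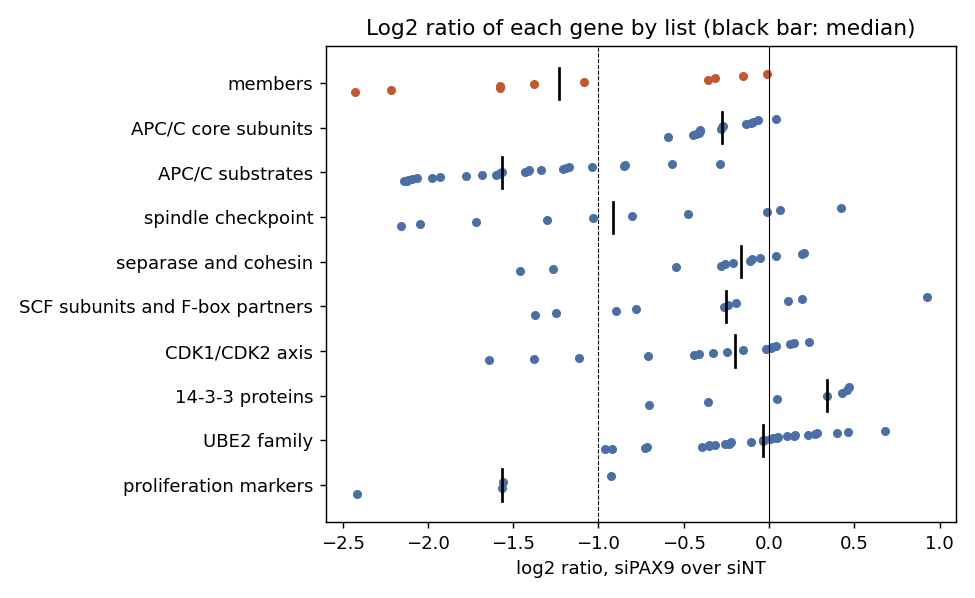
Log2 ratio of siPAX9 over siNT for each gene with a mean FPKM of at least 1, by list, with a black bar at each list's median, a dashed line at -1 and a solid line at 0. The 10 members fall into a group from -2.43 to -1.09 and a group from -0.36 to -0.01, the APC/C core subunits lie between -0.60 and 0.04, and the substrates have a median of -1.56.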

How the data were processed

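RNA-seq was deposited for 6 samples of MCF10A. Per the labels and the submitters' processing notes, poly(A)+ RNA was sequenced as single-end reads and processed with Partek, Bowtie2 and Cufflinks on hg19. The authors deposited 1 FPKM per locus and group, with no read count behind a value. No spread over samples could be computed from these, and no test over samples was run here. Columns with the authors' own fold change, test statistic, p-value, q-value and significance were not used.

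Comma-joined symbols were separated, and the row with the highest mean FPKM was kept per symbol. Log2 ratios were taken without a pseudocount. Genes with a mean FPKM of at least 1 were called at a fold of 2; the code for the calls was tested on simulated data with known ratios, which gives no error rate. Members and lists were chosen with earlier results of these data known. All members were named. Of lists over 10 genes, up to 6 genes past the fold and the gene nearest to 0 were named, and all genes of shorter lists. UBE2T was named as well, as the lowest of its list. Of the list genes, 2 were matched through an older symbol, and a marker of other cell types is not reported here. Promoters came from RefSeq (GRCh38.p14), and transcripts from GENCODE placed on GRCh37, aligned with blastn 2.17.0. Python 3.11.15, numpy 2.4.6, pandas 2.3.3, pysam 0.24.0, samtools 1.23.1 and matplotlib 3.10.9 were used. Alternatives were other folds, filters, a pseudocount of 1, centring, and other handling of rows.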

Additional observations from a re-analysis of the deposited data

How the results depend on the processing

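Under 10 alternatives, 549 of 590 recomputed values stayed within 1.5 times of the main value (for log2 ratios and medians, 1.5-fold once taken off the log scale), 39 moved further, and 2 medians changed sign. Of the 549, the log2 ratios of 2 genes under the fold, CDC25B and BUB1B, changed sign after centring. BUB1B has no row of its own symbol alone, so that alternative gave it no value. The median log2 ratio of the members ran from -1.23 to -1.13. With a mean FPKM of at least 5 it leaves out CDC25A and CDC25C, with mean FPKM of 4.51 and 3.05. The count of lower members was 6 at a fold of 1.5 and 2 at a fold of 4, and 5 with a pseudocount of 1, which left out FBXO5, or with a mean FPKM of at least 5, which left out CDC25C. Over all genes, 2221 were lower and 1812 higher at a fold of 1.5, 207 and 363 at a fold of 4, 2191 and 3797 with no filter on FPKM, and 565 and 427 with a mean FPKM of at least 5; a looser or stricter fold or filter passes more or fewer genes by construction. The median of the UBE2 family became 0.035 after centring, and that of the luminal markers 0.24 with no filter on FPKM, which lets in KRT19 and ESR1. The sum of PTTG1, PTTG2 and PTTG3P and the use of exact symbols only were chosen after seeing the data. No paired analysis was possible because the table holds 1 value per group; for the same reason leaving out each replicate was not run. The table gives no read counts, so the counting error of low values such as CDC25C in siPAX9 could not be given.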
